A study of Mus musculus with 9 samples.

Results

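The brain's blood vessels were followed through 35 genes that mark their endothelial and mural cells, the pericytes and smooth muscle cells that wrap them. The genes were chosen by symbol, for being known vascular genes, from a table of 27179 genes, and all 35 were found and passed the filter on low counts that left 17344 genes to test. The paraventricular nucleus (PVN), a cell group of the hypothalamus, was punched out and its RNA sequenced from 9 male wild-type C57BL/6 mice (C57BL/6J in the study's methods), 3 independent mice per group. The Control group was kept on chow, in which fat gave 16% of the calories, for 12 weeks. For the HFD group fat gave 60% of the calories over the same time. The HFD+Mino group had this diet too, and for the last 6 weeks its drinking water carried minocycline, an antibiotic of the tetracycline class that quiets microglia, at 40 mg/kg/day. The diets began at 5 weeks of age. The labels give the age as postnatal day 35, which is the age at this start and not after the 12 weeks of diet. No group received minocycline on chow, so that the drug can be compared only under the high fat diet.

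Endothelial cells line the vessels of the brain and are sealed to each other by tight junctions, which makes the blood-brain barrier. They carry nutrients across it by dedicated transporters and pump many drugs back into the blood. Vascular endothelial growth factor (VEGF) and angiopoietins act on receptors at their surface to guide growth and stability of the vessel, and endothelial cells recruit pericytes by releasing a platelet-derived growth factor that binds the receptor encoded by Pdgfrb. In a tissue punch these cells are a minority, so that each value is an average over all cells of the sample. Fewer vascular cells and less RNA per vascular cell cannot be told apart in such samples.

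Total counts per library ran from 17728590 in HFD 1 to 42326213 in Control 1. Values are given as CPM, the counts of a gene relative to a library total scaled by TMM, in the order of replicates 1, 2 and 3 of each group. The libraries of a group were not alike in composition. The summed CPM of 6 genes of PVN neurons (Sim1, Otp, Avp, Oxt, Crh and Trh), led by Avp, was 27.8, 932 and 2563 in the Control mice, 2479, 3206 and 3726 in the HFD mice and 37726, 31917 and 3104 in the HFD+Mino mice. Control 1 therefore held far fewer of the neuronal transcripts that define the PVN than its group. In this sum HFD+Mino 1 and 2 held far more than any other library, while HFD+Mino 3 lay within the HFD mice. The 6 genes did not move as 1 in HFD+Mino against HFD. Of them, 4 had positive and 2 negative log2 fold changes, from -1.10 to 3.66, and none was called (edgeR). Which of the HFD+Mino libraries represents the nucleus was not tested. Whether any of these libraries came from punches beside the nucleus or carry exchanged labels was not tested either, and the counts of calls are given with and without single libraries. Otp, one of the defining PVN genes, had no count in Control 1. Control 1 also had 29514 summed CPM of 8 oligodendrocyte genes, led by Mbp, against 2271 to 6944 in the other libraries. The ribosomal RNA precursor Rn45s stood at 3477 to 3829 CPM in the HFD mice, against 239 to 461 in the Control and 426 to 1346 in the HFD+Mino mice, so that it moved with the HFD group in each comparison with it. With Rn45s, Rn18s and the mitochondrial genome left out, the counts of called vascular genes stayed the same. This step leaves the read counts of the vascular genes as they are. It cannot show what came with Rn45s, whose part in the differences was not tested.

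Each of the 35 genes was detected, with at least 6 counts, in each library, and several, such as Tjp1, are also expressed by other cells of the brain. Levels of different genes were compared per kilobase of exon. In the Control mice the order was led by Itm2a (88.1 CPM per kilobase), Ly6a (53), Vtn (51.2), Ly6c1 (41.7), Cldn5 (41.3) and Slc2a1 (34.1). These 6 were also the highest in HFD, where Itm2a (53.9) was followed by Slc2a1 (35.9). Neighbours among the 6 in the Control order had overlapping values between mice. At the low end, Cdh5, Abcc9, Vwf and Anpep had at most 0.405 CPM per kilobase in the Control mice. Anpep and Cdh5 rested on as few as 6 and 21 counts in a library, and their log2 fold changes in HFD+Mino against HFD had standard errors of 0.70 and 0.54.

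**Figure D1:**
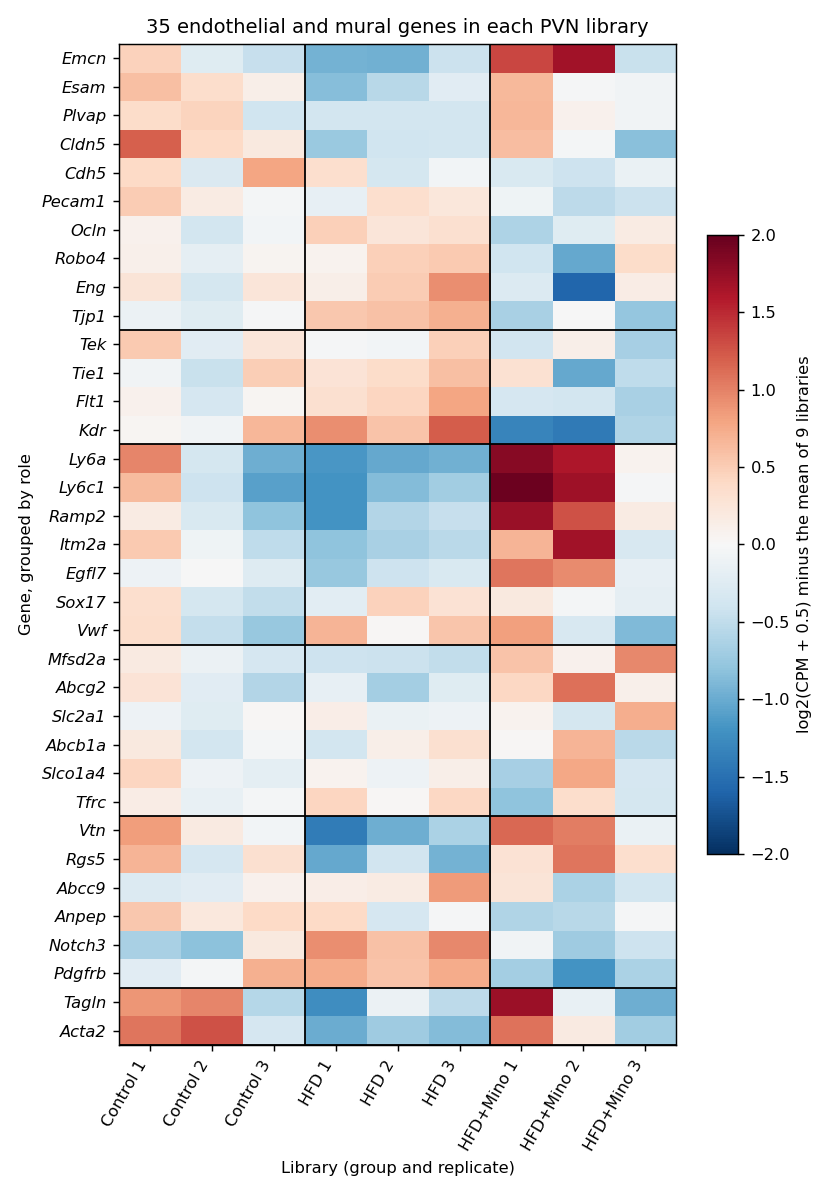
Heat map of log2(CPM + 0.5) of the 35 genes (rows, grouped by role, with lines between groups) in the 9 libraries (columns), as the difference from each gene's mean over the 9 libraries. Ly6a, Ly6c1, Ramp2, Vtn and Emcn are highest in HFD+Mino 1 and 2 and low in the HFD mice, while Kdr, Pdgfrb and Notch3 are higher in the HFD mice than in the HFD+Mino mice.

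Between HFD and HFD+Mino, 2 of the 35 genes passed the main threshold, an FDR under 0.01 over all 17344 tested genes (edgeR's quasi-likelihood test, Benjamini-Hochberg adjustment) with at least a 1.5-fold difference. Both, Kdr and Pdgfrb, were lower in HFD+Mino, and none was higher. Over all tested genes, 1.98% were called higher and 2.16% lower in this comparison. At an FDR under 0.05, 10 of the 35 (28.6%) were higher in HFD+Mino, against 14.6% of all tested genes, and 5 (14.3%) were lower, against 12.9%. The 10 were Emcn, Egfl7, Ramp2, Ly6c1, Ly6a, Itm2a, Abcg2, Mfsd2a, Rgs5 and Vtn, and the 5 were Tjp1, Kdr, Flt1, Pdgfrb and Notch3. The samples did not overlap for 12 genes that were higher and 6 that were lower in HFD+Mino, where 23.3% and 23.5% of all tested genes did so. The median log2 difference of the 35 genes was 0.03, beside 0.01 for all tested genes, with 18 positive and 17 negative values.

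The calls depended on the libraries and on the replicate number. Leaving out single libraries gave 0 to 9 genes at the main threshold. There were 9 without HFD+Mino 3, the library whose summed PVN genes were like those of the HFD mice. There were 6 without Control 1, 3 without Control 3 and 1 without HFD+Mino 2. Without Control 2, HFD+Mino 1 or any HFD library there were 0. The share of all tested genes called moved too. It was 21.4% without HFD+Mino 3, near the 25.7% of the 35 genes, and 5.27% without Control 1. Without Control 3, HFD+Mino 2, Control 2 and HFD+Mino 1 it was 4.78%, 1.89%, 0.828% and 0.59% in that order. Without an HFD library it was 0.162% to 0.328%. At an FDR under 0.05 the same step gave 0 to 13 genes higher, with 0 without HFD+Mino 1 and 13 without HFD+Mino 3, and 1 to 8 lower, with 1 without HFD 3 and 8 without HFD+Mino 3. Of all tested genes, 3.46% were then higher without HFD+Mino 1 and 19.2% without HFD+Mino 3. The lower share of all was 1.65% without HFD 3 and 18.8% without HFD+Mino 3. Without both Control 1 and HFD+Mino 3 there were 10 higher and 2 lower at the main threshold, beside 14.6% and 13.4% of all tested genes. A block for the replicate number in the Control and HFD+Mino groups rested on these data alone. Deviations of equal numbers correlated at 0.135 to 0.292, and no source names a pairing. With this block, 9 genes were higher and 5 lower, beside 12.9% and 12.7% of all tested genes.

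Between Control and HFD, none of the 35 genes passed the main threshold or an FDR under 0.05 in the main edgeR fit. An unadjusted p under 0.05 (edgeR) was reached by 9 of the 35 (25.7%) and by 20.5% of all tested genes. At the main threshold DESeq2 and edgeR's likelihood ratio test called 2 each, Vtn and Acta2, both lower in HFD. They called 3.63% and 3.19% of all tested genes lower. The replicate block added Cldn5 to these 2, with 2.87% of all lower. In the main fit 0.317% of all tested genes were called higher and 1.42% lower in HFD at the main threshold. At an FDR under 0.05 these shares were 2.57% and 3.21%. At that FDR, DESeq2 called 6 of the 35 and the likelihood ratio test 5, beside 11.3% and 9.62% of all. Fitting these 2 groups alone gave 5, beside 10.5%, and the replicate block gave 7, beside 15.3%. Leaving out Control 3 or HFD+Mino 3 gave 3 each, beside 7.12% and 8.26%. The samples did not overlap for 5 genes higher and 8 lower in HFD, beside 19.7% and 16% of all tested genes. The median log2 difference of the 35 genes was -0.08.

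Between Control and HFD+Mino, none of the 35 genes passed either threshold in the main edgeR fit. An unadjusted p under 0.05 (edgeR) was reached by 9 of the 35 (25.7%) and by 21.3% of all tested genes. In that fit 0% of all tested genes were called higher and 0% lower at both thresholds. At the main threshold DESeq2 and the likelihood ratio test also called 0 of the 35, beside 1.32% and 0.611% of all. At an FDR under 0.05 each called 4, Ramp2 and Ly6c1 higher and Kdr and Pdgfrb lower, beside 7.63% and 5.77% of all. Without HFD+Mino 3 there were 5 edgeR calls at the main threshold (Emcn, Egfl7, Ramp2 and Ly6c1 higher and Kdr lower). Beside these, 6.28% of all tested genes were called. Without Control 1 as well there were 7 calls, while 12% of all were called. With the replicate block in Control and HFD+Mino there were 4, Ramp2, Ly6c1 and Ly6a higher and Kdr lower, beside 2.68% and 0.496% of all tested genes. With the block over all samples, or with the former block and a smooth trend on exon length removed from each library, there were 0.

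In the 3-way test, which asks whether a gene differs among the groups with HFD at one end and 1.5-fold from the mean of the groups, 0 of the 35 genes passed an FDR under 0.01 with edgeR. With edgeR 0.917% of all tested genes had HFD highest and 1.21% had HFD lowest at this threshold. An unadjusted p under 0.05 was reached by 18 of the 35 (51.4%) and by 39% of all tested genes. DESeq2 called 12 of the 35 and 13.4% of all tested genes, and the likelihood ratio test 10 and 12.9%. At an FDR under 0.05, HFD was highest for Tjp1, Kdr, Pdgfrb and Notch3 and lowest for Emcn, Ramp2, Ly6c1, Ly6a and Vtn, where 6.37% and 6.65% of all tested genes passed. With the replicate block in Control and HFD+Mino there were 10 calls at the main threshold, beside 13.2% of all tested genes. Without HFD+Mino 3 there were 8, beside 13.4%, and without Control 1 there was 1, beside 1.75%. Without HFD 1, HFD 2 or HFD 3 there were 0, beside 0.0168% to 0.0779%.

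**Figure D2:**
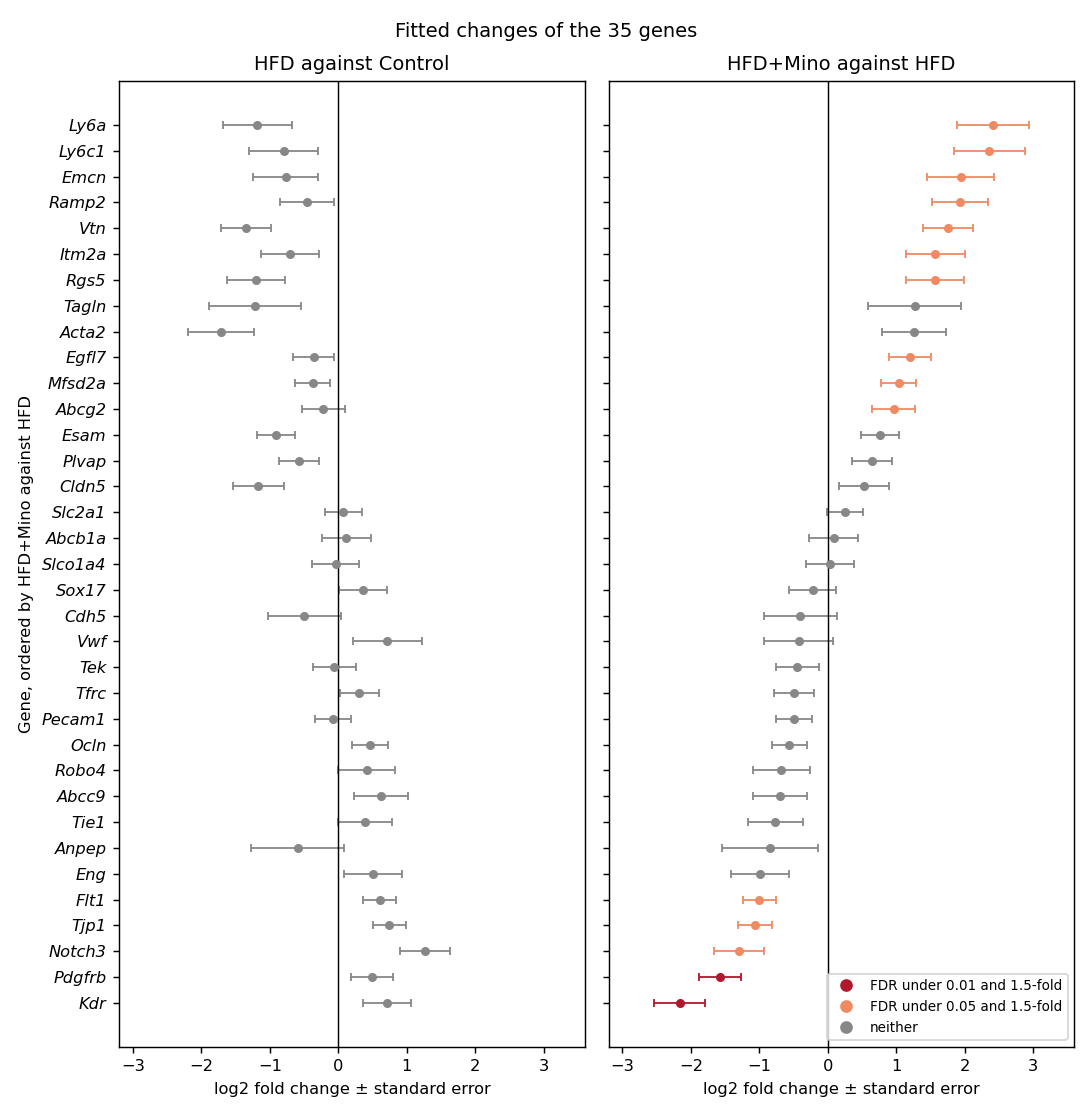
Log2 fold changes with their standard errors (edgeR fit over 9 libraries) of the 35 genes for HFD against Control (left) and HFD+Mino against HFD (right), in 1 order. Kdr and Pdgfrb pass an FDR under 0.01 at the right, none passes at the left, and the 2 comparisons share the HFD mice.

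The receptors for VEGF and angiopoietins form the first group, of 4 genes. Kdr encodes VEGF receptor 2, the main signaling receptor for VEGF-A in endothelial cells (chr5:75932827-75979072, minus strand, GRCm38). It had 6.91, 6.35 and 10.8 CPM in the Control mice, 13.1, 10.2 and 16.1 CPM in the HFD mice and 2.36, 2.19 and 4.21 CPM in the HFD+Mino mice. The HFD+Mino mice all lay below the Control and the HFD mice. The log2 fold change of HFD+Mino against HFD was -2.16 ± 0.37 (standard error, FDR = 0.0061, edgeR). Relative to Control it was -1.45 ± 0.36 in HFD+Mino (FDR = 0.13, edgeR) and 0.71 ± 0.35 in HFD (FDR = 0.28, edgeR). Flt1 encodes VEGF receptor 1, which binds VEGF tightly and limits its action. Its level was 22, 16.3 and 21.4 CPM in the Control mice, 26.1, 28.2 and 36.3 CPM in the HFD mice and 16.3, 15.9 and 13 CPM in the HFD+Mino mice. The HFD mice were the highest without overlap, and the fitted level was 2.003-fold lower in HFD+Mino than in HFD (FDR = 0.015, edgeR). With the smooth trend on exon length removed from each library, its log2 fold change was -0.37 (FDR = 0.27, edgeR), and it no longer passed an FDR under 0.05.

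Tek and Tie1, the angiopoietin receptor and its partner, had smaller differences. The log2 fold change of HFD+Mino against HFD was -0.44 ± 0.31 for Tek (FDR = 0.3, edgeR) and -0.77 ± 0.40 for Tie1 (FDR = 0.17, edgeR). All 4 receptors had a negative value in this comparison and 3 of 4 a positive value in HFD against Control. Their summed CPM was 55.2, 39.2 and 58.6 in Control, 61.3, 60.7 and 82.6 in HFD and 38, 36 and 30.5 in HFD+Mino, with the HFD+Mino mice below all others.

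The pericyte genes split. Pdgfrb, the receptor through which pericytes are recruited, had 9.84, 11.3 and 19.2 CPM in the Control mice, 19.7, 17.5 and 19.5 CPM in the HFD mice and 7.02, 4.75 and 7.24 CPM in the HFD+Mino mice. The HFD+Mino mice were below all other mice, and Control 3 lay with the HFD mice. Fitted against HFD, HFD+Mino had a log2 fold change of -1.57 ± 0.31 (FDR = 0.0095, edgeR). Kdr and Pdgfrb both lost the main threshold when Control 2, HFD+Mino 1, HFD+Mino 2 or any HFD library was left out, and Pdgfrb also when only the HFD and HFD+Mino groups were fitted. With the length trend removed, Kdr had a log2 fold change of -1.63 (FDR = 0.011, edgeR) and Pdgfrb one of -1.22 (FDR = 0.017, edgeR).

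Notch3, a receptor that keeps mural cells mature, moved the same way between HFD and HFD+Mino. It had 3.78, 3.3 and 7.12 CPM in the Control mice, 12.2, 9.51 and 12.5 CPM in the HFD mice and 5.85, 3.57 and 4.51 CPM in the HFD+Mino mice, so that HFD lay above both other groups without overlap. Its log2 fold change was 1.27 ± 0.36 in HFD against Control (FDR = 0.068, edgeR) and -1.30 ± 0.36 in HFD+Mino against HFD (FDR = 0.025, edgeR). With the length trend removed, the latter was -0.77 (FDR = 0.12, edgeR). An antisense gene model, Gm17276, shares 488 nt of exon with Notch3, and strand was not stated for the counting.

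Vtn and Rgs5 were on the other side. Vtn encodes vitronectin, a matrix protein that brain pericytes release. It had 144, 91 and 76.9 CPM in the Control mice, 30, 40.6 and 51.6 CPM in the HFD mice and 177, 163 and 73 CPM in the HFD+Mino mice. The HFD mice were the lowest without overlap. In log2 units the fold change was -1.35 ± 0.36 in HFD against Control (FDR = 0.055, edgeR) and 1.76 ± 0.37 in HFD+Mino against HFD (FDR = 0.011, edgeR), the latter 1.15 with the length trend removed (FDR = 0.026, edgeR). Rgs5, a regulator of G protein signaling used as a pericyte marker, had 6.21, 2.82 and 4.71 CPM in the Control mice, 1.56, 2.73 and 1.67 CPM in the HFD mice and 4.59, 8.25 and 4.81 CPM in the HFD+Mino mice. Here too the HFD mice lay below both other groups, with a log2 fold change of 1.56 ± 0.43 in HFD+Mino against HFD (FDR = 0.023, edgeR). Abcc9, a subunit of the pericyte potassium channel, and the aminopeptidase gene Anpep had log2 fold changes of -0.70 ± 0.40 and -0.85 ± 0.70 in that comparison (FDR = 0.21 and 0.39, edgeR).

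**Figure D3:**
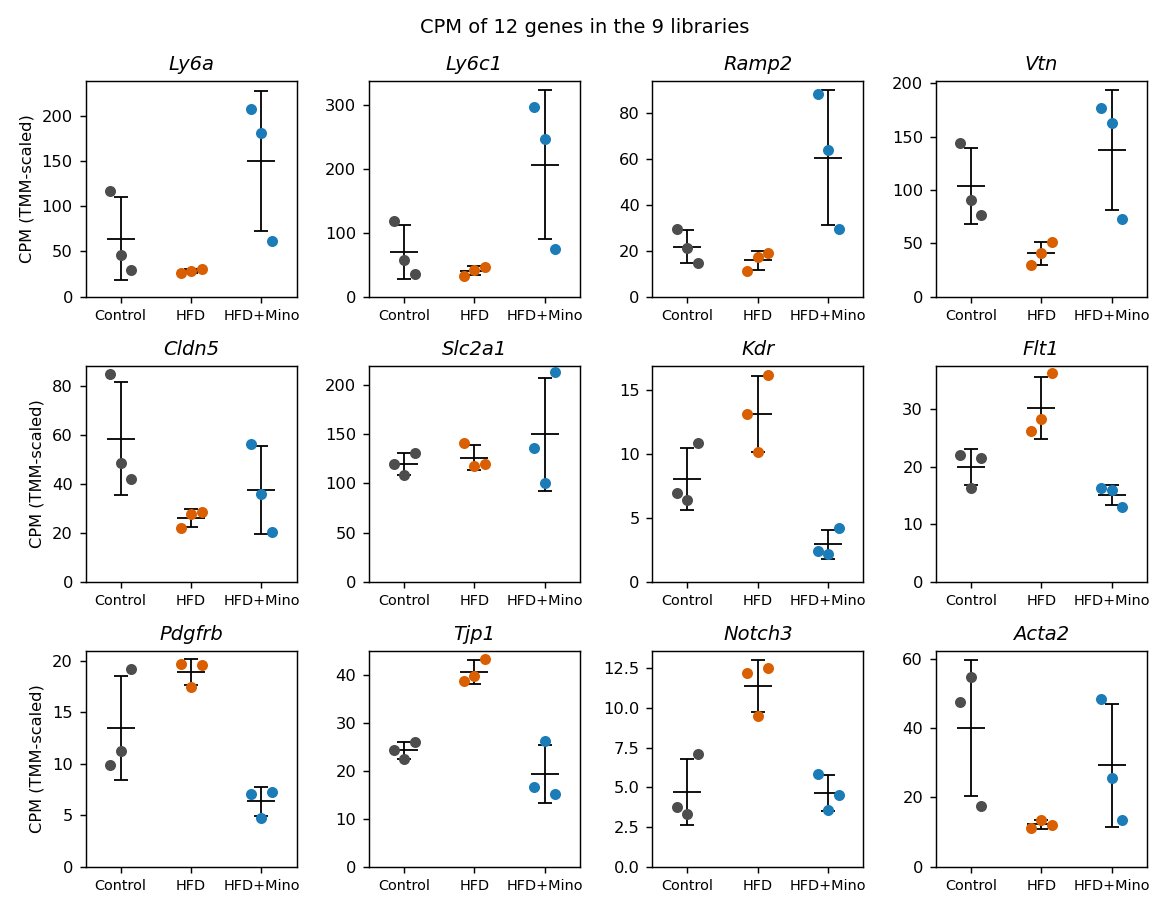
CPM of 12 of the genes in each mouse (points; horizontal bar and whiskers, mean ± SD, n = 3 per group; y axes start at 0 and differ between panels). For Ly6a, Ly6c1, Ramp2 and Vtn, HFD+Mino 3 lies nearest to the other groups, and for Kdr, Flt1 and Pdgfrb the HFD+Mino mice lie below all HFD mice.

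The largest positive values of HFD+Mino against HFD among the 35 genes were those of Ly6a and Ly6c1. They encode small surface proteins of the Ly6 family that mark endothelial cells of mouse brain vessels. Ly6a had 116, 45.9 and 29.5 CPM in the Control mice, 25.8, 28.7 and 30 CPM in the HFD mice and 208, 181 and 61.3 CPM in the HFD+Mino mice. Ly6c1 had 118, 56.9 and 35.3 CPM in the Control mice, 32.8, 41.2 and 46.6 CPM in the HFD mice and 297, 247 and 74.5 CPM in the HFD+Mino mice. In both, HFD+Mino 1 and 2 were the highest of all mice, and HFD+Mino 3 lay above the HFD mice but below Control 1. Compared with HFD, the log2 fold change in HFD+Mino was 2.41 ± 0.53 for Ly6a (FDR = 0.012, edgeR) and 2.36 ± 0.52 for Ly6c1 (FDR = 0.013, edgeR). With the length trend removed these were 1.38 and 1.53 (FDR = 0.029 and 0.027, edgeR), below those of Emcn (2.37), Ramp2 (1.88) and Rgs5 (1.83). Both belong to a family of similar neighbouring genes on chromosome 15, and how reads matching several places were treated is not given in the sources used here, so their values are uncertain.

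Ramp2, a partner of the receptor for adrenomedullin, had 29.5, 21.3 and 14.7 CPM in the Control mice, 11.2, 17.4 and 19 CPM in the HFD mice and 88.3, 64.2 and 29.5 CPM in the HFD+Mino mice. The HFD+Mino mice were above the HFD mice without overlap, with a log2 fold change of 1.93 ± 0.40 (FDR = 0.011, edgeR). Its exons share 1103 nt with Vps25 on the same strand, so reads could belong to either gene. Itm2a, a membrane protein gene with the highest level of the group, had 215, 141 and 105 CPM in the Control mice, 85, 94.9 and 102 CPM in the HFD mice and 239, 479.6 and 119.7 CPM in the HFD+Mino mice, and its value was 1.57 ± 0.43 (FDR = 0.024, edgeR), or 0.83 with the length trend removed (FDR = 0.13, edgeR). Egfl7, which encodes a protein that endothelial cells release and shares 264 nt of exon with the gene model Gm20532 on the same strand, had 47.6, 50.8 and 42.6 CPM in the Control mice, 30, 38.5 and 41.5 CPM in the HFD mice and 108, 98.7 and 45.6 CPM in the HFD+Mino mice, and its value was 1.20 ± 0.30 (FDR = 0.018, edgeR). Both had HFD as the lowest group, without overlap. The transcription factor gene Sox17 and the clotting factor gene Vwf had values of -0.22 ± 0.35 and -0.42 ± 0.50 (FDR = 0.66 and 0.56, edgeR). The summed CPM of these 7 genes was 539, 323 and 233 in Control, 198, 233 and 253 in HFD and 956, 1079 and 338 in HFD+Mino, so that the group's high level rested on HFD+Mino 1 and 2.

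Among the surface and junction proteins, Emcn and Tjp1 stood on opposite sides. Emcn, encoding the surface sialoprotein endomucin, had 16.8, 10.2 and 8.68 CPM in the Control mice, 6.02, 6 and 8.89 CPM in the HFD mice and 31.5, 40 and 8.8 CPM in the HFD+Mino mice. HFD+Mino 1 and 2 were the highest, and HFD+Mino 3 lay within the HFD mice. Its log2 fold change in HFD+Mino against HFD was 1.94 ± 0.49 (FDR = 0.018, edgeR). Tjp1, which encodes the junction scaffold ZO-1 that other cells of the brain also express, had 24.4, 22.4 and 26 CPM in the Control mice, 38.6, 39.8 and 43.4 CPM in the HFD mice and 16.6, 26.3 and 15.2 CPM in the HFD+Mino mice. The HFD mice were the highest without overlap, and the value was -1.07 ± 0.25 (FDR = 0.014, edgeR). With the length trend removed it was -0.56 (FDR = 0.13, edgeR), which did not pass an FDR under 0.05.

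Cldn5, the main claudin of the blood-brain barrier, had 84.7, 48.6 and 42 CPM in the Control mice, 21.8, 27.6 and 28.5 CPM in the HFD mice and 56.4, 35.6 and 20.3 CPM in the HFD+Mino mice. All HFD mice lay below all Control mice, at a log2 fold change of -1.17 ± 0.37 (FDR = 0.099, edgeR), while HFD+Mino overlapped both groups. Esam, an endothelial adhesion molecule, had 41.9, 35 and 29.8 CPM in the Control mice, 14.9, 18.5 and 23.2 CPM in the HFD mice and 42.9, 26.9 and 26.1 CPM in the HFD+Mino mice. HFD was the lowest group without overlap. Its log2 fold change was -0.91 ± 0.27 in HFD against Control (FDR = 0.082, edgeR) and 0.76 ± 0.27 in HFD+Mino against HFD (FDR = 0.059, edgeR).

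The remaining 6 surface genes were not called in any comparison. Ocln, the tight junction protein occludin, had a log2 fold change of -0.56 ± 0.26 in HFD+Mino against HFD (FDR = 0.13, edgeR). Eng, a coreceptor for transforming growth factor beta, had -0.99 ± 0.43 (FDR = 0.1, edgeR). Plvap, which builds the diaphragms of leaky vessels, had 0.65 ± 0.29 (FDR = 0.12, edgeR). For the adhesion molecule genes Pecam1 and Cdh5 and the guidance receptor gene Robo4 the values were -0.50 ± 0.26, -0.40 ± 0.54 and -0.68 ± 0.42 (FDR = 0.18, 0.61 and 0.24, edgeR).

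Among the 6 barrier transporters, Abcg2 and Mfsd2a were higher in HFD+Mino than in HFD at an FDR under 0.05. Mfsd2a, a carrier of lysolipids with omega-3 fatty acids that also keeps transport across endothelial cells low, had 44.4, 36.1 and 31 CPM in the Control mice, 29.4, 28.9 and 27.7 CPM in the HFD mice and 58.2, 41.4 and 76.6 CPM in the HFD+Mino mice. The HFD+Mino mice were above all HFD mice, and HFD+Mino 3 was the highest, unlike for the Ly6 genes. Its log2 fold change was 1.04 ± 0.25 (FDR = 0.016, edgeR), and 0.60 with the length trend removed (FDR = 0.12, edgeR). Abcg2, a drug efflux pump, had 36.5, 25.6 and 19.9 CPM in the Control mice, 26.7, 18.6 and 25.3 CPM in the HFD mice and 40.1, 64.9 and 32.3 CPM in the HFD+Mino mice, with a value of 0.96 ± 0.32 (FDR = 0.044, edgeR).

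Slc2a1, the glucose transporter of the barrier, had the highest level of these genes, with 119.9, 109 and 131 CPM in the Control mice, 141, 117 and 120.1 CPM in the HFD mice and 136, 100.4 and 213 CPM in the HFD+Mino mice. The groups overlapped, and the log2 fold change was 0.07 ± 0.27 in HFD against Control (FDR = 0.9, edgeR) and 0.25 ± 0.27 in HFD+Mino against HFD (FDR = 0.51, edgeR). Slco1a4, a carrier of organic anions, had a value of 0.03 ± 0.34 in HFD+Mino against HFD, and its levels in HFD+Mino were 31.3, 86.1 and 39.6 CPM, so that HFD+Mino 2 was the highest of all mice. The efflux pump gene Abcb1a and the transferrin receptor gene Tfrc had values of 0.09 ± 0.36 and -0.49 ± 0.29 (FDR = 0.88 and 0.21, edgeR). Reads of Abcb1a could be split with its near-identical neighbour Abcb1b.

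The contractile genes of smooth muscle varied widely between mice of a group. Acta2, encoding smooth muscle actin, had 47.6, 54.7 and 17.6 CPM in the Control mice, 11, 13.5 and 12.1 CPM in the HFD mice and 48.4, 25.6 and 13.6 CPM in the HFD+Mino mice. The HFD mice lay below all others, by a narrow gap to HFD+Mino 3. Fitted log2 fold changes were -1.71 ± 0.48 in HFD against Control (FDR = 0.064, edgeR) and 1.26 ± 0.47 in HFD+Mino against HFD (FDR = 0.069, edgeR). Tagln, encoding the actin-binding protein transgelin, had values of -1.21 ± 0.68 and 1.27 ± 0.68 (FDR = 0.34 and 0.18, edgeR), and shares 1241 nt of exon with a gene model on the opposite strand.

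Promoter windows from RefSeq (GRCm38.p6, 250 bases before to 50 after a start) were matched to 25 of the 35 genes, in 32 windows. On either strand, AGGAAG, the core bound by ETS factors that drive endothelial genes, was found in windows of 12 of these genes and in 50% of the 32 windows, against 35.4% of all 32851 windows. The longer form ACAGGAAG, which includes that core, was found in Egfl7, Emcn and Abcg2, in 5 of the 32 windows (15.6%) against 3.58% of all, where several windows belong to 1 gene. These 3 genes were among those higher in HFD+Mino at an FDR under 0.05, as were 8 of the 25 genes with a window and 5 of the 12 with AGGAAG. For each, 1 window with that form is shown, and Kdr's window is shown because Kdr passed the main threshold. The capitals mark ACAGGAAG or its reverse complement, and Kdr's window holds neither. The windows were chr2:26580833-26581132 on the plus strand for Egfl7, chr3:137340828-137341127 on the plus strand for Emcn, chr6:58596422-58596721 on the plus strand for Abcg2 and chr5:75978406-75978705 on the minus strand for Kdr.
Egfl7: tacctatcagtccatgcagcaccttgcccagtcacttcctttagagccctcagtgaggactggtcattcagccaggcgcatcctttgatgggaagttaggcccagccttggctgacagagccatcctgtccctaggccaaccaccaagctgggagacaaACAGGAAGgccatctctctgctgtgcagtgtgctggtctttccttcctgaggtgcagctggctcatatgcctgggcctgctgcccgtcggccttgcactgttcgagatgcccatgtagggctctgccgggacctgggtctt
Emcn: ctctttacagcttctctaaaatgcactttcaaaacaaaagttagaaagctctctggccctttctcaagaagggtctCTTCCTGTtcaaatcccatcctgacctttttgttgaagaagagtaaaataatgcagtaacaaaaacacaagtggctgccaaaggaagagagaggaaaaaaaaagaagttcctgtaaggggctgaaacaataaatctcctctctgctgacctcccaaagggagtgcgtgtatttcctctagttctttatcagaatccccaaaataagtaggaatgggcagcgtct
Abcg2: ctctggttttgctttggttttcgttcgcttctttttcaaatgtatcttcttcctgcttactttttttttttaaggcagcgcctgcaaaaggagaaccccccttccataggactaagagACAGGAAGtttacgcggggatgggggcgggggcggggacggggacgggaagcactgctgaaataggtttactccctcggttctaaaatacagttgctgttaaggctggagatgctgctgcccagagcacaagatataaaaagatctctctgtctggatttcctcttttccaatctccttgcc
Kdr: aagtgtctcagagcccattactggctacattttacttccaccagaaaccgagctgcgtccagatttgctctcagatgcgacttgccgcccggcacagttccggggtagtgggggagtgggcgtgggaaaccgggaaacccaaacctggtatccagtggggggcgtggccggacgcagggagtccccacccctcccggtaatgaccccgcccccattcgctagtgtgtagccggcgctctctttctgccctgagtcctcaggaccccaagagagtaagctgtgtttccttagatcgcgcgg
The other motifs searched were AACAAT (SOX factors), in 9.38% of the 32 windows against 10.7% of all, CCACACCC (KLF factors), in 3.12% against 3.56%, and the CArG box of serum response factor, in 0% against 1.63%. A match describes the letters and is no evidence of binding.

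The direction of the vascular genes moved with their exon length. In HFD+Mino against HFD, the 9 genes in the lowest quartile of exon length of all genes (at most 2535 nt) all had positive log2 differences: Cldn5, Plvap, Ly6c1, Ly6a, Itm2a, Mfsd2a, Vtn, Acta2 and Tagln. Of the 7 in the highest quartile (at least 6489 nt), 6 had negative ones, all but Abcg2. Over all tested genes with a length, 82.9% of the lowest quartile were positive and 74.3% of the highest were negative, with medians of 0.81 and -0.54. The rank correlation of difference and length was -0.67 over the 35 genes and -0.49 over 16850 genes, as a description across genes, which are not independent. In HFD against Control these were 0.78 and 0.31, with 0 of the 9 short genes positive, and the 2 comparisons share the HFD mice. With the length trend removed from each library, 0 of the 35 genes passed the main threshold with edgeR. At an FDR under 0.05, Emcn, Egfl7, Ramp2, Ly6c1, Ly6a, Abcg2, Rgs5 and Vtn were then still higher and Kdr and Pdgfrb lower in HFD+Mino, beside 11% and 6.13% of all tested genes. Beyond this, the part of length in the values was not tested.

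**Figure D4:**
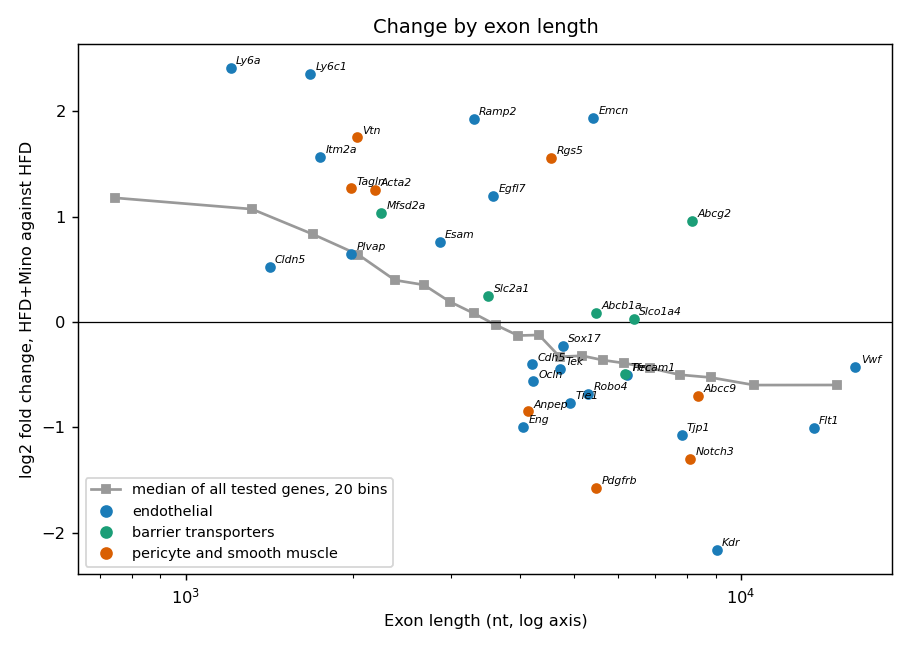
Log2 fold change of HFD+Mino against HFD by exon length (log axis) for the 35 genes (points, coloured by role) and the median of all tested genes in 20 length bins (grey line). Short genes such as Ly6a lie above 0 and long genes such as Kdr and Flt1 below it, as the grey line does, and Emcn, Rgs5 and Abcg2 lie above that line.

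Summed transcripts of red blood cells and of fibroblasts and meninges were highest in the same libraries as the sum of the vascular genes. Single vascular genes differed from that sum, with 17 of the 35 negative in HFD+Mino against HFD. The summed CPM of 5 red blood cell genes, led by Hba-a1, was 101, 39.4 and 27.2 in Control, 21.9, 49.2 and 43 in HFD and 148, 118 and 23.2 in HFD+Mino, highest in the same 3 libraries, Control 1 and HFD+Mino 1 and 2, as the summed CPM of the 35 vascular genes (1405, 994 and 879 in Control, 813, 827 and 935 in HFD and 1781, 1876 and 1021 in HFD+Mino). Whether blood was flushed from the vessels is not given in the sources used here. The summed CPM of 11 genes of fibroblasts and meninges, led by Dcn, was 84.5, 51.1 and 29.1 in Control. It was 32.5, 34.3 and 41.5 in HFD and 81.3, 87.2 and 35.6 in HFD+Mino, with the same 3 libraries on top. Single genes of this list differed: 8 of the 11 were positive and 3 negative in HFD+Mino against HFD. At an FDR under 0.05 Dcn was higher and Col1a1, Col1a2 and Col3a1 were lower (edgeR), beside 14.6% and 12.9% of all tested genes. The 8 ependymal and tanycyte genes, led by Tmem212, summed to 26.9, 139 and 149.9 CPM in Control, 291, 203 and 161 CPM in HFD and 632, 742 and 335 CPM in HFD+Mino, lowest in Control 1 and highest in HFD+Mino. The 9 choroid plexus genes, led by Prlr, summed to 29.8 to 142 CPM. The astrocyte and neuron lists varied less: 4476 to 6965 CPM for 8 astrocyte genes, led by Aldoc, and 3793 to 7770 CPM for 8 neuron genes, led by Snap25. The part of these differences in composition in the vascular values was not tested.

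**Figure D5:**
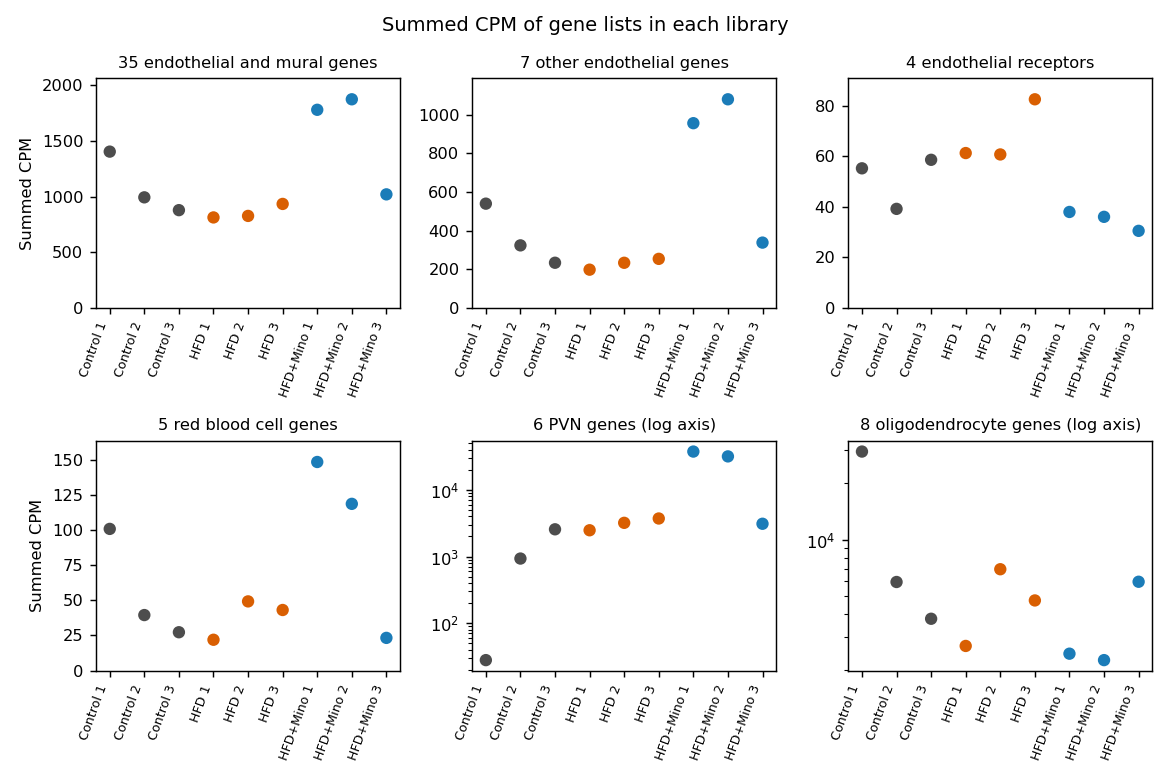
Summed CPM per library of the 35 vascular genes, of 2 of their groups and of red blood cell, PVN and oligodendrocyte genes (points coloured by group, grey Control, orange HFD, blue HFD+Mino; log axes for the last 2). Control 1 and HFD+Mino 1 and 2 are highest for the vascular and the red blood cell genes, whereas the 4 receptors are lowest in the HFD+Mino mice.

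Genes that act with these 35 were read from 9 lists of vascular genes chosen by function, with 172 tested genes. Of these, 2 rose and 3 fell in HFD against Control at the main threshold, 5 rose and 6 fell in HFD+Mino against HFD, 0 were called in HFD+Mino against Control, and 5 were called in the 3-way test (edgeR). In the same order DESeq2 called 16, 47, 3 and 38 and the likelihood ratio test 12, 43, 2 and 34. Of all tested genes edgeR called 1.74%, 4.15%, 0% and 2.13% in that order. DESeq2 called 6.76%, 22.2%, 1.32% and 13.4% of all, and the likelihood ratio test 5.57%, 19.1%, 0.611% and 12.9%. At an FDR under 0.05, 23 were higher and 33 lower in HFD+Mino than in HFD, or 13.4% and 19.2% of the 172, beside 14.6% and 12.9% of all tested genes. Leaving out single libraries gave 0 to 9 calls in HFD against Control (0 without HFD 1 or HFD 3, and 9 without HFD+Mino 3) and 0 to 36 in HFD+Mino against HFD (0 without HFD 2 or HFD 3, and 36 without HFD+Mino 3). In HFD against Control, 0.335%, 0.408% and 3.08% of all tested genes were called without HFD 1, HFD 3 and HFD+Mino 3. In HFD+Mino against HFD, 0.328%, 0.162% and 21.4% of all were called without HFD 2, HFD 3 and HFD+Mino 3. Without HFD+Mino 3 there were 7 calls of list genes in HFD+Mino against Control, beside 6.28% of all tested genes. The same step gave 30 in the 3-way test, beside 13.4% of all. With any HFD library left out the 3-way test gave 0, beside 0.0168% to 0.0779% of all. With the replicate block in Control and HFD+Mino there were 16 calls in HFD against Control, 48 in HFD+Mino against HFD, 3 in HFD+Mino against Control and 30 in the 3-way test. Beside these, 6.22%, 25.6%, 3.18% and 13.2% of all tested genes were called. With the length trend removed there were 6 in HFD+Mino against HFD, beside 2.57% of all. Of the 6, Wnt7a, Cavin1 and Lamb2 were also called without that step. The calls of Vegfb, Klf2, Lrp1, Pglyrp1, Cspg4, Higd1b and Ifitm1 were among those lost with it. In the 3-way test Lamb2 and Cspg4 lost their calls with it. In HFD against Control, 4 of the 5 calls, those of Vegfb, Foxf2, Klf2 and Cavin1, were also made with the length trend removed. That of Cspg4 was not.

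Among the 22 ligands, Vegfb fell in HFD against Control and rose in HFD+Mino against HFD. This member of the VEGF family binds the receptor encoded by Flt1. It had 87.9, 68.5 and 59.9 CPM in the Control mice, 18.4, 24.9 and 25.3 CPM in the HFD mice and 74.2, 44.7 and 51.7 CPM in the HFD+Mino mice, and its log2 fold changes were -1.65 ± 0.26 (FDR = 0.0047, edgeR) and 1.31 ± 0.26 (FDR = 0.0095, edgeR). The HFD mice were the lowest without overlap. Wnt7a, a ligand that induces barrier properties, fell in HFD+Mino against HFD with a log2 fold change of -1.42 ± 0.28 (FDR = 0.0095, edgeR). None of the 23 receptors was called by edgeR at the main threshold. Of them, 14 had an unadjusted p under 0.05 in HFD+Mino against HFD, as did 41.3% of all tested genes. At an FDR under 0.05, 1 receptor was higher and 8 were lower in HFD+Mino than in HFD, beside 14.6% and 12.9% of all tested genes. The 8 were Nrp1, Nrp2, Aplnr, Notch1, Ptprb, Tgfbr2, Ednrb and Adgrf5.

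Of 18 endothelial transcription factors, Klf2, which responds to flow, had 9.12, 12.7 and 13 CPM in the Control mice, 0.452, 1.16 and 0.772 CPM in the HFD mice and 4.55, 4.38 and 9.89 CPM in the HFD+Mino mice. HFD lay below both other groups without overlap, and the log2 fold change was -3.84 ± 0.47 in HFD against Control (FDR = 0.0012, edgeR) and 2.95 ± 0.46 in HFD+Mino against HFD (FDR = 0.0042, edgeR). Klf2 is also expressed in immune cells and other cells of the brain. Foxf2, a factor that brain pericytes need, had 4.89, 3.16 and 4.45 CPM in the Control mice, 0.703, 1.07 and 0.871 CPM in the HFD mice and 3.77, 2.9 and 2.54 CPM in the HFD+Mino mice, with a log2 fold change of -2.23 ± 0.40 in HFD against Control (FDR = 0.0089, edgeR).

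In the 3-way test HFD was highest for Cavin1, Cspg4 and Lamb2. Cavin1, a coat protein of caveolae, had 10.5, 11.6 and 10.1 CPM in the Control mice, 34.9, 34.4 and 37.3 CPM in the HFD mice and 9.24, 8.88 and 11.1 CPM in the HFD+Mino mice. It rose in HFD against Control (1.73 ± 0.22, FDR = 0.0014, edgeR) and fell in HFD+Mino against HFD (-1.87 ± 0.22, FDR = 0.0012, edgeR), with no overlap of HFD with the other groups. Cspg4, the proteoglycan NG2 of pericytes and of oligodendrocyte precursors, had 5.81, 7.09 and 7.77 CPM in the Control mice, 19.5, 21.5 and 22.4 CPM in the HFD mice and 6.68, 7.24 and 5.41 CPM in the HFD+Mino mice. It rose in HFD against Control (1.62 ± 0.25, FDR = 0.0045, edgeR) and fell in HFD+Mino against HFD (-1.71 ± 0.25, FDR = 0.0035, edgeR). Lamb2, a laminin chain of the basement membrane, had 8.3, 12.8 and 23.3 CPM in the Control mice, 48.3, 42.2 and 45.4 CPM in the HFD mice and 10.5, 5.65 and 12.2 CPM in the HFD+Mino mice, and fell in HFD+Mino against HFD (-2.26 ± 0.39, FDR = 0.0065, edgeR).

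Further calls were in HFD+Mino against HFD. Lrp1, a receptor for lipoproteins that neurons and astrocytes also express, fell (log2 fold change -1.74 ± 0.35, FDR = 0.0095, edgeR). The peptidoglycan recognition protein gene Pglyrp1, listed with the barrier genes, had 14.4, 7.23 and 6.56 CPM in the Control mice, 4.17, 5.39 and 6.45 CPM in the HFD mice and 32.1, 27.3 and 11.6 CPM in the HFD+Mino mice and rose (log2 fold change 2.14 ± 0.43, FDR = 0.00998, edgeR). Higd1b, listed with the pericytes, had 15.4, 10.2 and 4.71 CPM in the Control mice, 3.26, 3.39 and 4.06 CPM in the HFD mice and 32.8, 37.5 and 9.62 CPM in the HFD+Mino mice and rose (2.89 ± 0.54, FDR = 0.008, edgeR). Ifitm1, from the same list, had 4.69, 2.74 and 1.03 CPM in the Control mice, 1.61, 1.48 and 1.49 CPM in the HFD mice and 18.5, 20.5 and 4.73 CPM in the HFD+Mino mice and rose (3.25 ± 0.63, FDR = 0.0089, edgeR). In these 3 genes HFD+Mino 3 was again the lowest of its group.

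Counted by list in HFD+Mino against HFD at the main threshold, 1 of 22 ligands rose and 1 fell, 0 of 23 receptors moved, 1 of 18 transcription factors rose, and 1 of 32 barrier transport and caveolar genes rose and 2 fell. Of 15 basement membrane genes 1 fell, of 18 pericyte genes outside the 35 genes 2 rose and 1 fell, and of 13 smooth muscle genes and 11 endothelial inflammation genes none was called (edgeR, where 5 and 3 had an unadjusted p under 0.05 and 3 and 2 passed an FDR under 0.05). Over all tested genes 1.98% rose and 2.16% fell at the main threshold. An unadjusted p under 0.05 was reached by 41.3% of them, and 27.4% passed an FDR under 0.05.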

How the data were processed

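The authors deposited raw counts per gene, aligned with HISAT2 to mm10 and assigned by featureCounts. Tool versions, strand and multimapping settings are not given in the sources used here. Libraries were made with a low-input cDNA kit and transposase fragmentation. The 958 genes with an identifier but no symbol, from 0.0785% to 0.0932% of a library's counts, stayed in. edgeR 4.0.16 (R 4.3.3) was run on these counts, with filterByExpr, TMM scaling and a quasi-likelihood fit over all 9 libraries, and calls at an FDR under 0.01 and 1.5-fold. CPM used TMM-scaled library sizes. The spread between replicates exceeded that of counting alone (chi-square over its degrees of freedom, 22.0 to 337). The counts had no molecular identifiers, so precision was taken from the spread between mice. Lengths and overlaps came from GENCODE M21 (GRCm38). Code was tested on simulated data.

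The 35 genes, the lists and the tests were chosen with earlier results of these data known. Equal replicate numbers of Control and HFD+Mino deviated together (correlations of deviations 0.135, 0.163 and 0.292). No source names a shared litter, batch or day, so the pairing rests on the data. The alternatives were DESeq2 1.42.0, a likelihood ratio test, RLE size factors, other filters, abundant RNAs left out, replicate blocks, length and GC trends, 2-group fits, other thresholds and single libraries left out. Named genes were all 35 (CPM per library for those called, with an unadjusted 3-way p under 0.05 or highest in their group), the listed genes called in any test, and each marker list's sum and most abundant gene. Some of these genes, and lists that rest on them, are not reported here.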

Additional observations from a re-analysis of the deposited data

How the results depend on the processing

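Of the 35 genes, those past an FDR under 0.05 in a test of the main fit kept their direction in it under all alternatives run. Directions of other genes were not followed in this way. Calls of the 35 genes in HFD against Control (0) became 2 with DESeq2, 2 with the likelihood ratio test, 3 with the replicate block in Control and HFD+Mino alone, and 1 with that block and the length trend removed. The share of all tested genes called, 1.74% in the main fit, was then 6.76%, 5.57%, 6.22% and 5.11% in that order. Leaving out each library in turn gave 0 each time, beside 0.335% to 3.08% of all tested genes. Calls in HFD+Mino against HFD (2) became 14 with DESeq2, 14 with the likelihood ratio test, 9 with no filter, 4 with a mean count of at least 50, 14 with that replicate block, 0 with the length trend removed, 7 with the GC trend removed, 15 at an FDR under 0.05, 12 without Control 1 and HFD+Mino 3, and 9 with the block and length trend together, and 0 to 9 with each library left out. Over all tested genes the share called, 4.15% in the main fit, moved too. It was 22.2%, 19.1%, 7.61%, 6.76%, 25.6%, 2.57%, 8.49%, 27.4%, 28% and 15.6% in that order. With each library left out it was 0.162% to 21.4%. Calls in HFD+Mino against Control (0) became 4 with the block, 7 without Control 1 and HFD+Mino 3, and 0 to 5 with each library left out. Beside these, 3.18%, 12% and 0% to 6.28% of all tested genes were called. Calls in the 3-way test (0) became 12 with DESeq2, 10 with the likelihood ratio test, 6 with no filter, 1 with the block over all samples, 10 with the block in Control and HFD+Mino alone, 1 with the GC trend removed, 9 at an FDR under 0.05, 9 without Control 1 and HFD+Mino 3, 7 with block and length trend, and 0 to 8 with each library left out. Here the share of all tested genes called was 2.13% in the main fit. It was 13.4%, 12.9%, 5.19%, 2.81%, 13.2%, 3.54%, 13%, 15% and 8.11% in that order. With each library left out it was 0.0168% to 13.4%. The pair of settings that leave out 2 libraries or join block and length, the FDR under 0.05 counted under all alternatives, and some vascular list settings were chosen after seeing the data. The causes of these moves were not tested, beside the smaller number of samples or genes that a setting itself brings. The block over all samples gave 3 calls in HFD+Mino against HFD, beside 7.89% of all tested genes. RLE size factors and leaving out abundant RNAs kept the count of calls.

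With the vascular lists, calls in HFD+Mino against HFD were 11 and ranged at an FDR under 0.01 from 0 without HFD 2 or HFD 3 to 51 without Control 1 and HFD+Mino 3 together, and were 56 at an FDR under 0.05. Of all tested genes, 4.15% were called in the main fit and 0.328% and 0.162% without HFD 2 and HFD 3. Without Control 1 and HFD+Mino 3 the share was 28%, and at an FDR under 0.05 it was 27.4%. Depth limits Anpep and Cdh5 most, which had as few as 6 and 21 counts in a library.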
